A study of Anas platyrhynchos with 16 samples.

Results

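The pituitary glands of caged ducks were compared with those of ducks kept in a floor-water system. Of the 16 RNA sequencing libraries of the series, 8 were from pituitary: 4 from caged ducks and 4 from floor-water ducks, chosen by their tissue and housing labels. The other 8 libraries, from hypothalamus with the same 4 and 4 division, were used to recognise brain transcripts and to set the response of the pituitary beside that of the hypothalamus.

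All birds were Shanma ducks (Anas platyrhynchos), an egg-laying Chinese breed, sampled at 113 days of age. From day 110 the caged group, 15 birds, was housed in 3 cages measuring 100 × 45 × 50 cm and received 16 h of light a day. The floor-water group, also 15 birds, stayed on the floor with access to water under natural light. Housing and light regimen therefore differed together and cannot be told apart, and the caged birds had been in their cages for only a few days. All libraries were made from total RNA with integrity numbers above 7.0. Whether each library is a separate bird, and which cage it came from, is not in the labels, so p-values measure the spread between these libraries only. With 3 cages and 4 caged pituitary libraries, the caged libraries cannot all come from separate cages.

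The anterior pituitary holds separate cell types that secrete prolactin, growth hormone, the products of pro-opiomelanocortin, thyrotropin and the gonadotropins, each under hypothalamic control. In birds, prolactin is driven by vasoactive intestinal peptide from the hypothalamus and takes part in reproduction, incubation and water balance. Thyrotropin and the gonadotropins share a common alpha chain and differ in their beta chains. The posterior lobe is an outgrowth of the brain made of axon endings and glia called pituicytes, so it can bring neural transcripts into a whole gland. In a bulk sample, fewer cells of a type and less RNA per cell cannot be told apart.

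Library totals were 48433586 to 67175356 counts in the caged and 53476789 to 65601674 counts in the floor-water pituitaries. Levels are given as CPM, counts scaled to a common library size, and fold changes as log2 values of caged over floor-water, so that a positive value means a higher level in caged ducks. The 6 hormone genes measured took 20.4%, 16.4%, 21.2% and 15.8% of all counts in the 4 caged libraries and 16.1%, 14.3%, 17.9% and 16.2% in the 4 floor-water libraries. The label of pituitary tissue was thus met by anterior pituitary hormones in all 8 libraries.

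Brain RNA was present in very unequal amounts. MBP, which encodes myelin basic protein of oligodendrocytes, stood at 3.33, 96.9, 2.94 and 0.485 FPKM (fragments scaled by transcript length and depth) in caged libraries 1 to 4, against 6.44, 34.3, 8.88 and 99.9 FPKM in floor-water libraries 1 to 4. A broader measure used 46 genes with at least 20 FPKM in hypothalamus and at least 100 times their median level in pituitary, and took the median of their levels as a percentage of the hypothalamus. This brain share was 0.133%, 4.13%, 0.121% and 0.0378% in caged libraries, against 0.460%, 3.995%, 0.355% and 4.17% in floor-water libraries. It averaged 1.11 ± 2.02% in caged and 2.25 ± 2.12% in floor-water libraries (SD, n = 4 each; two-sided exact permutation test, p = 0.2, where the smallest p the design allows is 0.0286). Caged library 2 and floor-water libraries 2 and 4, all above 3%, are called brain-rich here.

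Floor-water libraries 1 and 2 stood apart in another way. The mean log2(FPKM + 1) of 7 smooth muscle markers was 1.89, 1.86, 1.63 and 1.63 in the 4 caged libraries and 3.86, 3.796, 1.65 and 1.77 in the 4 floor-water libraries. MYH11, the smooth muscle myosin heavy chain, had 1.098, 2.08, 1.55 and 2.04 CPM in the 4 caged libraries, against 55.7, 66.4, 1.84 and 1.29 CPM in the 4 floor-water libraries. TAGLN, an actin-binding protein of the same cells, had 6.28, 4.31, 2.56 and 2.39 CPM in the 4 caged libraries, against 132, 135, 3.92 and 2.96 CPM in the 4 floor-water libraries. Both genes were thus many times higher in floor-water libraries 1 and 2 than in any of the other 6 libraries. Floor-water library 1 alone also carried skeletal muscle transcripts, and MYL1, a fast myosin light chain, had caged values of 0.366, 0, 0.0589 and 0 CPM and floor-water values of 28.6, 0.86, 0.945 and 0 CPM. Values without the brain-rich libraries, or without floor-water libraries 1 and 2, are added beside a number of the lists and genes below. The first setting keeps only libraries 1 and 3 of the floor-water group, and library 1 is rich in muscle markers. The second keeps only floor-water libraries 3 and 4, and library 4 is brain-rich. Each setting thus rests on few floor-water libraries and keeps some of the other admixture.

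**Figure D1:**
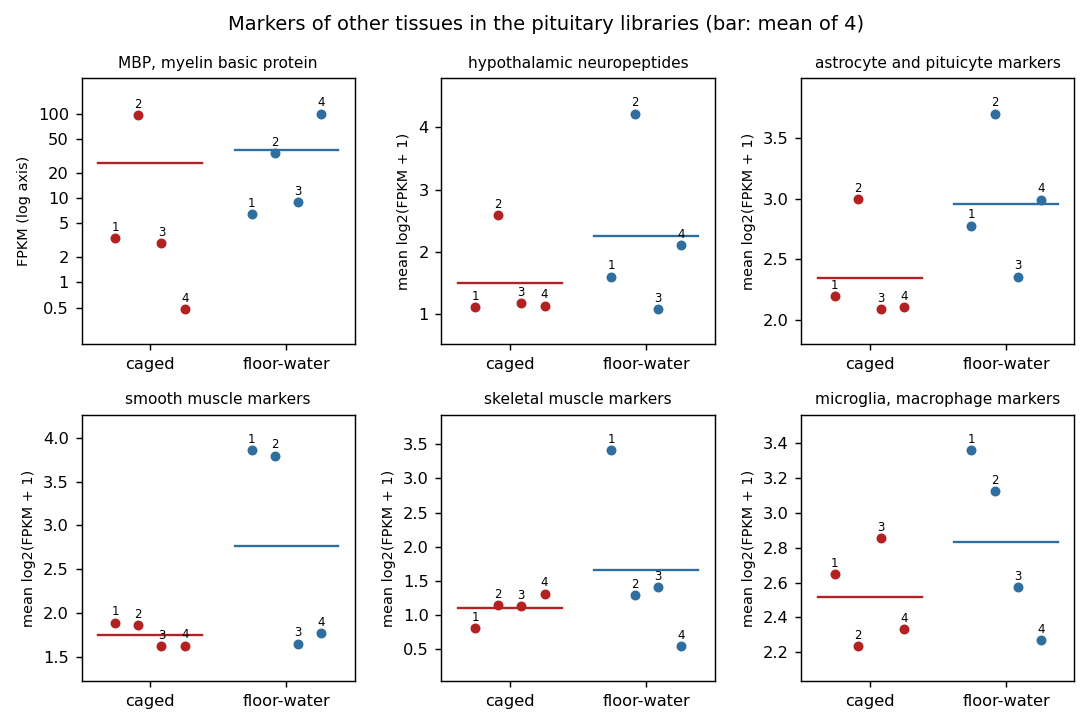
MBP in FPKM (log axis) and the mean log2(FPKM + 1) of 5 marker lists in each pituitary library, with caged libraries left and floor-water libraries right; points carry the library number and bars are means of 4. Caged library 2 and floor-water libraries 2 and 4 were high in MBP, whereas floor-water libraries 1 and 2 were high in smooth muscle markers and floor-water library 1 in skeletal muscle markers.

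Across 15582 genes tested, 0 (0%) passed an adjusted p of 0.05 in edgeR's quasi-likelihood test with Benjamini-Hochberg adjustment. At an unadjusted p under 0.05 there were 266 genes with a higher level (1.71%) and 404 with a lower level (2.59%) in caged pituitaries. The 4 caged libraries lay wholly above the 4 floor-water libraries for 202 genes (1.3%) and wholly below them for 210 genes (1.35%). With 70 possible assignments of the libraries, about 1 in 70 genes would separate in each direction without any difference between groups. An unadjusted p under 0.05 would then be expected for a share of 0.05 of genes, both directions together. None of the shares seen was above these rates. Of all genes tested, 7628 (49%) had a log2 fold change above 0, and the median was -0.01. DESeq2, run as an alternative, called 52 of 15742 genes (0.33%), 16 of them higher in caged ducks. Since no gene passed the edgeR test, none is counted as changed, and the levels in each library are given with the fold change.

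The 10 genes with the smallest p and a higher level had varied roles. They came from annotated genes whose groups did not overlap. Genes more than 10 times higher in hypothalamus than in pituitary were left out, so genes higher in brain could still be named. GRIN2C, a subunit of the NMDA type of glutamate receptor, had 10.6, 5.32, 6.57 and 10.5 CPM in the 4 caged libraries, against 2.94, 1.9001, 0.963 and 1.58 CPM in the 4 floor-water libraries. Its log2 fold change was 2.16 ± 0.401 (SE). NFAT5, the transcription factor that switches on osmoprotective genes in hypertonic surroundings, had 186, 112, 168 and 154 CPM in the 4 caged libraries, against 35.8, 29.7, 95.6 and 33.1 CPM in the 4 floor-water libraries. The log2 fold change of NFAT5 was 1.67 ± 0.37 (SE), and floor-water library 3 was far closer to the caged libraries than the other floor-water libraries were. Without that library NFAT5 had a log2 fold change of 2.26 and passed the edgeR test (adjusted p = 0.0212), as did PPM1L, a protein phosphatase, at a log2 fold change of 4.88. Because the library left out was the highest floor-water library for NFAT5, the larger fold change of NFAT5 follows from leaving it out. The pass is therefore no further support for NFAT5. FMNL1, a formin that assembles actin filaments, had 44.4, 72.5, 79.9 and 44.3 CPM in the caged and 32.001, 20.7, 31.4 and 21.8 CPM in the floor-water pituitaries, a log2 fold change of 1.19. USP34, a ubiquitin-removing enzyme, had caged values of 48.7, 41.2, 38.4 and 38.6 CPM and floor-water values of 26.3, 23.4, 27.8 and 23.7 CPM, with little spread on either side and a log2 fold change of 0.72. PIK3R3, a regulatory subunit of phosphoinositide 3-kinase, showed 157, 94.8, 117 and 137 CPM in the caged and 59.6, 81.1, 73.4 and 72.96 CPM in the floor-water pituitaries. HSF4, a heat shock transcription factor, was low everywhere, with caged values of 5.68, 5.07, 9.73 and 5.7997 CPM and floor-water values of 3.73, 1.54, 2.64 and 1.64 CPM. SLC35A5, of the nucleotide-sugar transporter family, NKAIN4, which interacts with the sodium-potassium pump, and RAB5IF, the RAB5 interacting factor, had log2 fold changes of 1.04, 0.9998 and 0.53. The remaining gene was prolactin, described below.

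The 10 genes named in the lower direction had varied roles as well. RPIA, ribose-5-phosphate isomerase of the pentose phosphate pathway, had 25.5, 22.97, 25.9 and 26.02 CPM in the 4 caged libraries, against 35.3, 60.1, 65.5 and 55.9 CPM in the 4 floor-water libraries. The caged values of RPIA were almost equal, and its log2 fold change was -1.11 ± 0.198 (SE). PLIN2, which coats lipid droplets, had 27.6, 33.8, 28.04 and 28.4 CPM in the 4 caged libraries, against 51.9, 41.3, 72.2 and 56.6 CPM in the 4 floor-water libraries. SOAT1, which esterifies cholesterol for storage, had 22.9, 27.98, 22.3 and 8.62 CPM in the caged and 38.5, 50.6, 71.9 and 67.99 CPM in the floor-water pituitaries. The log2 fold changes of PLIN2 and SOAT1 were -0.91 and -1.48, and both kept their direction when floor-water libraries 1 and 2 were left out (-1.14 and -1.79). SELE, the endothelial adhesion molecule E-selectin, had 0.506, 0.656, 0.677 and 1.34 CPM in the 4 caged libraries, against 6.08, 2.32, 4.33 and 2.19 CPM in the 4 floor-water libraries. COL4A5, a basement membrane collagen chain, had 131, 126, 139.5 and 89.8 CPM in the caged and 240.5, 208, 197 and 183 CPM in the floor-water pituitaries. ADAMTS8, a secreted metalloprotease, had 28.8, 16.5, 13.1 and 31.4 CPM in the caged and 48.5, 64.2, 48.6 and 48.7 CPM in the floor-water pituitaries. GRIA3, a subunit of the AMPA type of glutamate receptor, had 2.16, 5.84, 2.68 and 3.15 CPM in the caged and 8.31, 11.8, 9.29 and 10.8 CPM in the floor-water pituitaries. The AMPA gene was thus lower and the NMDA gene GRIN2C higher in caged ducks. GRIA3 was far higher in hypothalamus, with a mean of 9.52 FPKM against 0.487 in caged and 1.49 in floor-water pituitaries. Its log2 fold change was -1.54, and -1.72 without the brain-rich libraries. The part of brain RNA in its values was not tested. TBX3, a T-box transcription factor, and RUNX1, a transcription factor of blood cell formation, had log2 fold changes of -0.86 and -1.58. PER2 is described with the clock genes.

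DESeq2 gave an adjusted p under 0.05 to 18 of these 20 genes, against 0.33% of all genes it tested. PRL (0.0657) and RAB5IF (0.0708) were the exceptions. The 20 genes were chosen from the same counts by small p and separate groups, so this count is no independent support. The smallest p of all belonged to LOC110353286, a gene listed by a locus number and singled out after its values were seen. It had 4.74, 7.51, 3.71 and 6.17 CPM in the 4 caged libraries, against 51.1, 52.1, 31.9 and 23.1 CPM in the 4 floor-water libraries. Its log2 fold change of -2.84 ± 0.33 (SE) had an adjusted p of 0.104 in edgeR, while the adjusted p of every other gene named for this comparison over all 8 libraries was 0.961 or more. GRIN2C, USP34, FMNL1 and PRL each overlap another annotated gene on the opposite strand, and because nothing read here states the use of strand in counting, reads of the 2 genes cannot be told apart.

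**Figure D2:**
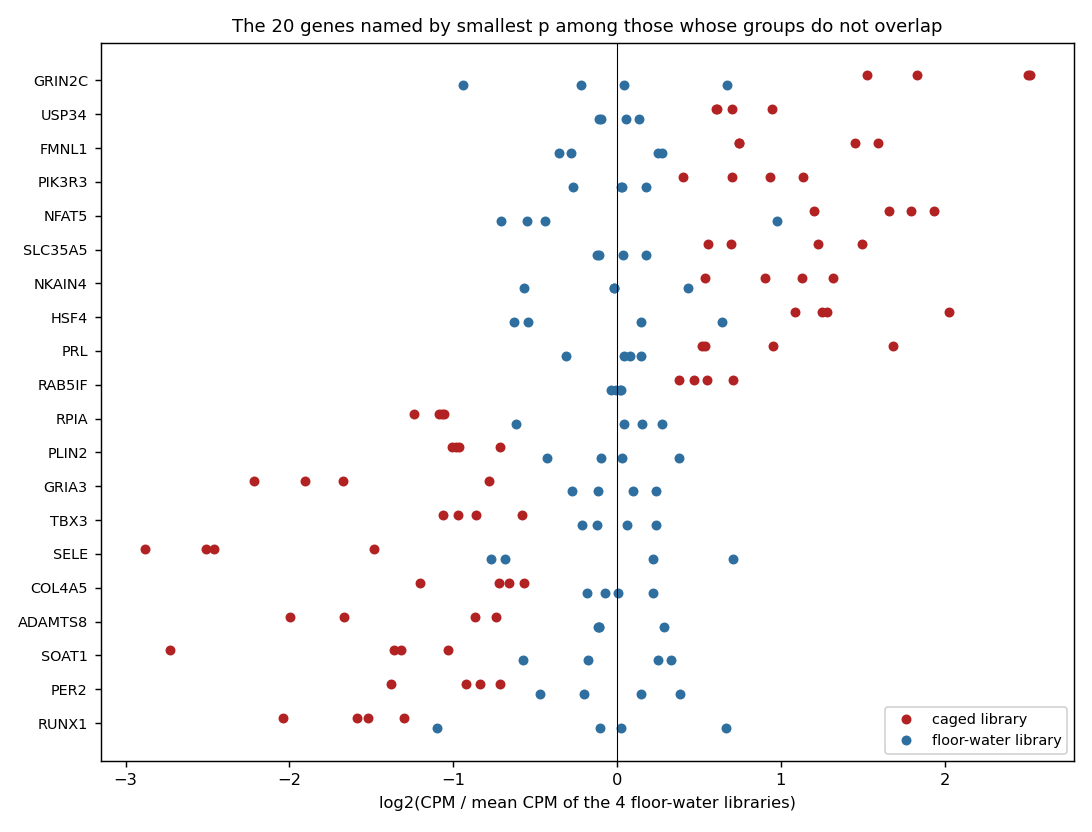
Level of the 20 named genes in each library, as log2 of CPM over the mean CPM of the 4 floor-water libraries; in each row the caged libraries are drawn above the floor-water libraries. The groups do not overlap in any row, which the choice of these genes required, and floor-water library 3 lies near the caged libraries for NFAT5.

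Prolactin was the hormone that differed most. PRL had 47025, 63654, 105434 and 47673 CPM in the 4 caged libraries, against 34697, 36423, 26518 and 33783 CPM in the 4 floor-water libraries. Every caged library was above every floor-water library, and caged library 3 was the highest. PRL averaged 65946 ± 27425 CPM among the caged libraries, against 32855 ± 4365 CPM among the floor-water libraries (SD, n = 4 each), a log2 fold change of 1.01 ± 0.26 (SE) with an unadjusted p of 0.00324 and an adjusted p of 0.972 in edgeR. The log2 fold change was 1.13 without the brain-rich libraries, 1.12 without floor-water libraries 1 and 2, and 0.68 to 1.14 when each library was left out in turn.

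CGA, the alpha chain shared by thyrotropin and the gonadotropins, had 12057, 20197, 15936 and 10568 CPM in the 4 caged libraries, against 9928, 5865, 11201 and 7486 CPM in the 4 floor-water libraries. The groups overlapped, since floor-water library 3 exceeded caged library 4, and the log2 fold change was 0.77 ± 0.26 (SE). It came to 0.29 without the brain-rich libraries. The beta chains lay the other way. TSHB, the thyrotropin beta chain, had caged values of 93.03, 126, 126 and 209.8 CPM and floor-water values of 128, 229.8, 184 and 176 CPM, and FSHB, the follicle-stimulating hormone beta chain, had caged values of 382, 824, 148 and 199 CPM and floor-water values of 561, 586, 559 and 469.9 CPM. FSHB was high in caged library 2 and low in the other caged libraries, whereas the floor-water libraries lay close together. The log2 fold changes were -0.37 ± 0.26 for TSHB and -0.49 ± 0.45 for FSHB (SE), and without the brain-rich libraries they were -0.12 and -1.196. Without caged library 2 that of FSHB was -1.16, and without caged library 3 it was -0.215. The luteinizing hormone beta chain was not analysed here.

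GH1, growth hormone, was the most abundant of the 6 hormone transcripts per length, at a mean of 93187 FPKM over the caged and 107612 FPKM over the floor-water libraries. It had 138995, 55229, 76585 and 85243 CPM in the 4 caged libraries, against 90169, 63118, 153729.6 and 94890.2 CPM in the 4 floor-water libraries, a log2 fold change of -0.17 ± 0.32 (SE) that turned to 0.12 without floor-water library 3. POMC, the precursor of corticotropin and melanocortins, had 16277, 22487, 11688 and 23008 CPM in the caged and 12470.4, 16512, 17208 and 24029 CPM in the floor-water pituitaries, a log2 fold change of 0.065 ± 0.26 (SE) whose sign varied with the setting. For both genes the spread within each group was wider than the difference between the group means. Of the 6 hormone genes, 3 were above 0, and 2 had an unadjusted p under 0.05 (PRL and CGA, both higher), against 1.71% of all genes. PRL was the 1 gene separated between the groups, against 1.3% of all genes in that direction.

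**Figure D3:**
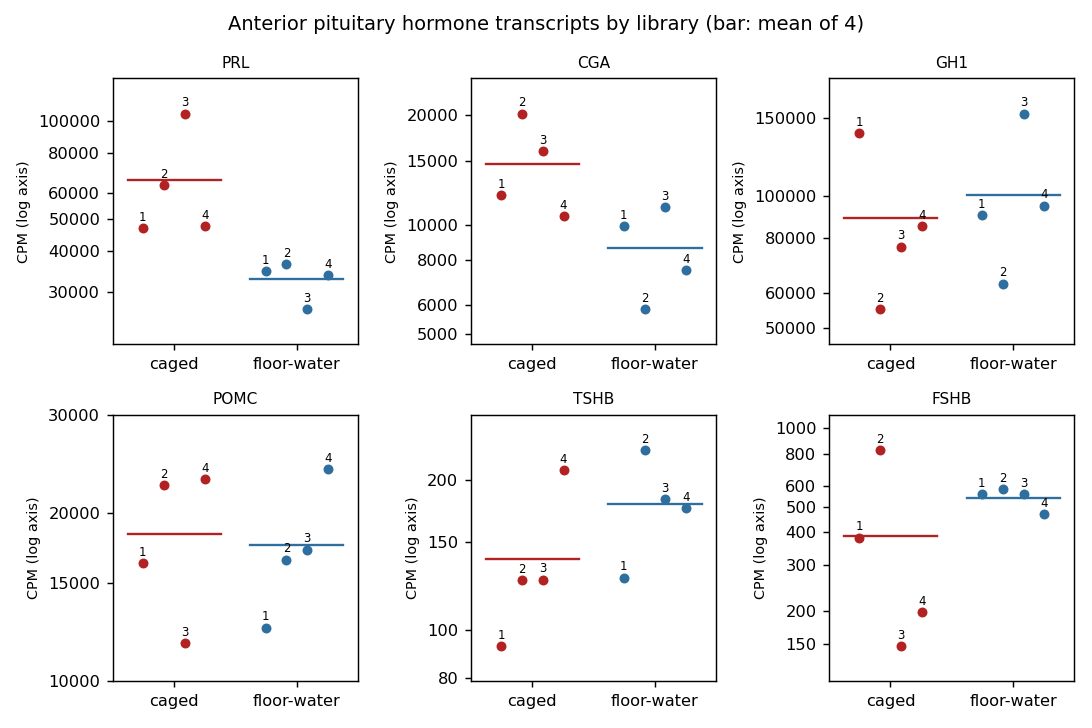
CPM (log axis) of 6 anterior pituitary hormone genes in each library, caged left and floor-water right, with library numbers and means of 4 as bars. The groups are separate for PRL, with caged libraries at 47025 to 105434 CPM and floor-water libraries at 26518 to 36423 CPM, and overlap for the other genes.

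Transcription factors that specify or maintain pituitary cell lineages showed no common direction: 11 of 20 tested were above 0, with a median of 0.046. INSM1, a zinc-finger factor of endocrine cells that is needed for their differentiation in mice, had 265, 321, 256 and 420.1 CPM in the 4 caged libraries, against 166, 241, 133 and 161 CPM in the 4 floor-water libraries. NEUROD1, a basic helix-loop-helix factor of corticotropes and other endocrine cells, had 126, 179.8, 143 and 221 CPM in the 4 caged libraries, against 104, 126, 79.7 and 114 CPM in the 4 floor-water libraries. The groups were separate for both genes, with log2 fold changes of 0.85 ± 0.22 and 0.66 ± 0.21 (SE), and caged library 4 was the highest for each. FOXL2 and PITX1, which act in gonadotropes and across the anterior lobe, had log2 fold changes of 0.47 and 0.41 with overlapping libraries. RAX, a factor of the hypothalamus and of pituicytes, lay the other way with caged values of 1.36, 0.827, 1.16 and 0.613 CPM and floor-water values of 4.36, 10.96, 0.606 and 1.601 CPM; its log2 fold change of -2.14 became -0.16 without floor-water libraries 1 and 2.

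Receptors for hypothalamic hormones and for the peripheral signals that reach the gland were spread to both sides, with log2 fold changes from -2.8 to 1.28. Of 30 tested, 11 were above 0, and the median was -0.15 (0.075 without the brain-rich libraries). GHRHR, the receptor for growth hormone-releasing hormone, had 246, 129, 190.4 and 179 CPM in the caged and 131, 112, 171 and 118 CPM in the floor-water pituitaries, a log2 fold change of 0.49 ± 0.22 (SE). DRD2, the dopamine receptor that restrains prolactin cells, had 41.9, 36.9, 91.2 and 48.8 CPM in the caged and 31.2, 38.2, 22.8 and 48.5 CPM in the floor-water pituitaries, and caged library 3, the library with the most PRL, was also the highest in DRD2. VIPR1, a receptor of vasoactive intestinal peptide, the avian prolactin-releasing factor, had caged values of 30.1, 56.04, 56.4 and 32.2 CPM and floor-water values of 32.2, 31.97, 48.7 and 42.5 CPM. TRHR, the receptor for thyrotropin-releasing hormone, and CRHR1, that for corticotropin-releasing hormone, had log2 fold changes of -0.12 ± 0.24 and -0.38 ± 0.58 (SE), with overlapping groups. The receptors with the smallest p in the lower direction, SSTR1, MC4R, NPY5R and GALR2, were low or near 0 in most libraries and peaked in floor-water library 2. Leaving out the brain-rich libraries brought the log2 fold change of SSTR1, a somatostatin receptor, to -0.703, against -1.66 over all 8 libraries.

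Immediate early genes, which are transcribed within minutes of hormonal or electrical stimulation of a cell, were the list that lay furthest above 0. Of 24 tested, 19 were above 0 and 10 had a higher level at an unadjusted p under 0.05, with 0 in the lower direction, against 1.71% and 2.59% of all genes. Only 1 of 24 did not overlap between the groups, against 1.3% of all genes in that direction. The median log2 fold change of the list was 0.62, beside -0.01 over all genes. FOS, a partner in the AP-1 transcription factor, had 344, 378, 427 and 168 CPM in the 4 caged libraries, against 141, 89.9, 34.7 and 198 CPM in the 4 floor-water libraries. Caged libraries 1, 2 and 3 were above every floor-water library, and caged library 4 was below floor-water library 4. EGR1, a zinc-finger factor induced by gonadotropin-releasing hormone in mammals, had 1024, 1481, 867 and 316 CPM in the 4 caged libraries, against 489, 247, 125 and 469 CPM in the 4 floor-water libraries. NR4A1, an orphan nuclear receptor that acts on POMC in mice, had 98.3, 522, 314 and 77.2 CPM in the 4 caged libraries, against 79.7, 79.2, 49.6 and 30.7 CPM in the 4 floor-water libraries. JUND, another AP-1 partner, had 154, 284, 231 and 214 CPM in the 4 caged libraries, against 118, 126, 157 and 107 CPM in the 4 floor-water libraries. The log2 fold changes were 1.51 ± 0.47 for FOS, 1.47 ± 0.504 for EGR1, 2.08 ± 0.59 for NR4A1 and 0.798 ± 0.204 for JUND (SE), and their unadjusted edgeR p-values were 0.00976, 0.0155, 0.00566 and 0.00297. NR4A1 was highest in brain-rich caged library 2 and had a log2 fold change of 1.35 without the brain-rich libraries. DUSP1, a phosphatase that ends MAP kinase signals and is a member of the list, had a log2 fold change of 0.99. KLF6, a zinc-finger factor, lay the other way at -0.68.

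The level of this list varied between libraries of 1 group as well. Its mean log2(FPKM + 1) was 3.95, 4.67, 4.35 and 3.66 in the 4 caged libraries and 3.86, 4.07, 3.11 and 3.64 in the 4 floor-water libraries, so that brain-rich caged library 2 was the highest and floor-water library 3 the lowest. Caged libraries 1 and 4 lay within the floor-water range. The median of the log2 fold changes was 0.47 without the brain-rich libraries, with 21 of 24 above 0, and 0.82 without floor-water libraries 1 and 2. Leaving out single libraries gave medians of 0.29 to 0.81. The labels state neither the hour of sampling nor the handling time of the tissue.

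Genes that are induced by cAMP or that damp MAP kinase signals lay above 0 in 19 of 27 cases, with a median of 0.16. CREM, whose short product represses cAMP-driven transcription, had 46.2, 111, 107 and 64.5 CPM in the caged and 49.6, 68.04, 34.1 and 50.3 CPM in the floor-water pituitaries, and its log2 fold change was 0.703 ± 0.304 (SE). DUSP5 and DUSP4, phosphatases of the MAP kinases, had log2 fold changes of 0.83 and 0.595, the first resting on a value of 32.5 CPM in caged library 2. RASD1, a small G protein induced by dexamethasone, had 0.43, and PDE7B, a cAMP phosphodiesterase, lay the other way at -0.42.

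**Figure D4:**
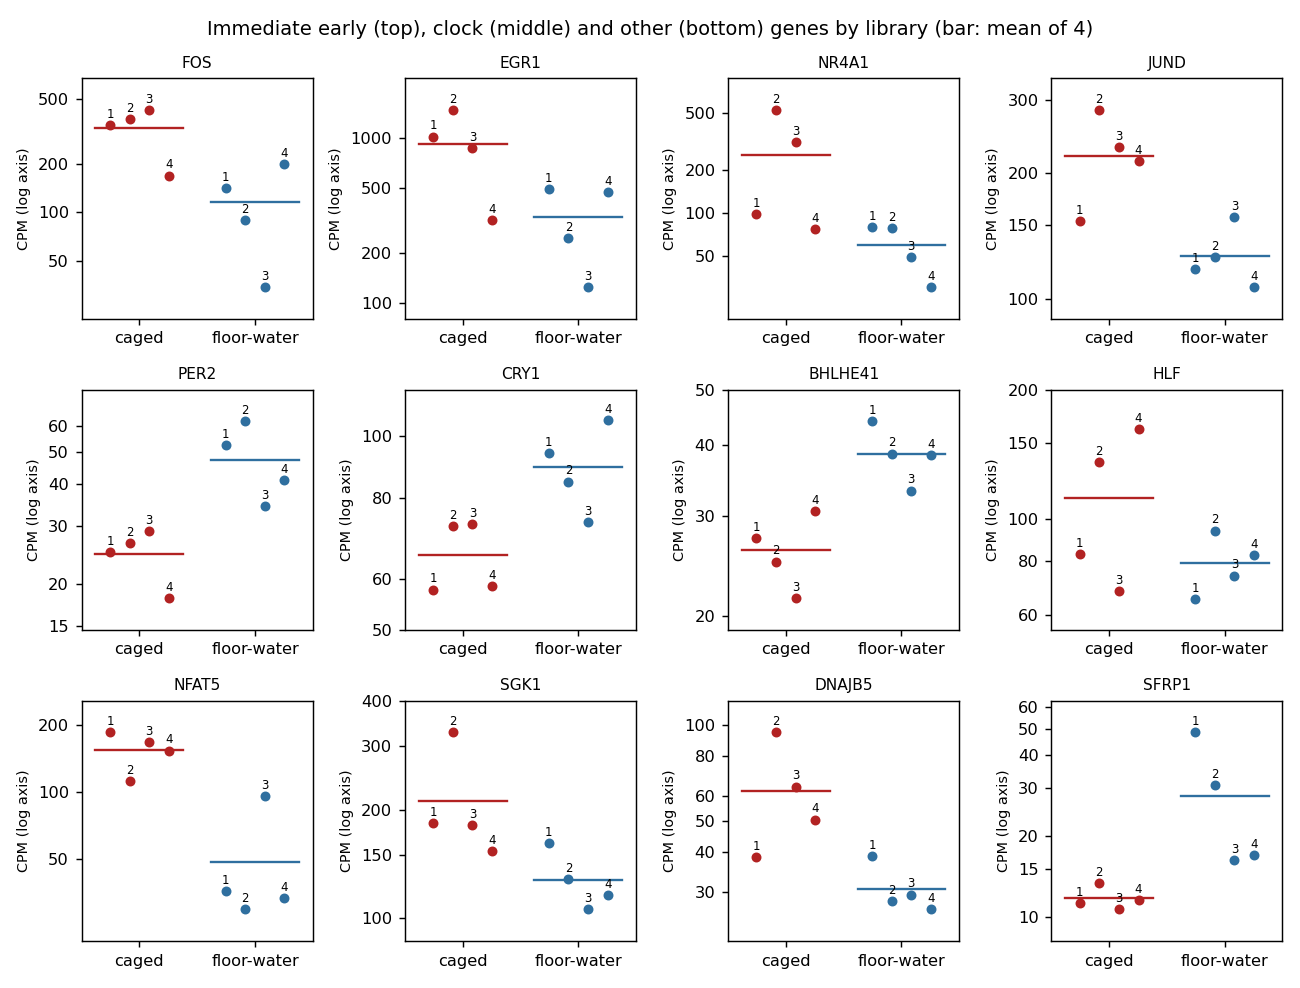
CPM (log axis) by library for 4 immediate early genes, 4 clock genes and NFAT5, SGK1, DNAJB5 and SFRP1, caged left and floor-water right, with library numbers and means of 4 as bars. PER2, CRY1, BHLHE41, NFAT5 and SFRP1 are separate between the groups, while FOS, EGR1, NR4A1 and JUND have 1 or more caged libraries within the floor-water range.

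Among 19 circadian clock genes, 9 were above 0 and the median was -0.038, so the list as a whole did not lean. Within it, 3 members had an unadjusted p under 0.05, all lower, against 2.59% of all genes, and the same members were the ones whose groups did not overlap, against 1.35% of all genes in that direction. PER2, a light-responsive repressor of the clock in birds, had 25.02, 26.6, 28.8 and 18.2 CPM in the 4 caged libraries, against 52.4, 61.8, 34.3 and 41.1 CPM in the 4 floor-water libraries. CRY1, its cryptochrome partner, had 57.7, 72.4, 72.8 and 58.5 CPM in the 4 caged libraries, against 93.9, 84.9, 73.3 and 106 CPM in the 4 floor-water libraries. BHLHE41, a further repressor of the clock, had 27.4, 24.9, 21.5 and 30.6 CPM in the 4 caged libraries, against 44.1, 38.7, 33.3 and 38.4 CPM in the 4 floor-water libraries. The log2 fold changes were -0.94 ± 0.22, -0.45 ± 0.16 and -0.56 ± 0.17 (SE), and for CRY1 the caged maximum and the floor-water minimum were almost equal. NR1D2, a nuclear receptor of the clock, was at -0.33 and PER3 at 0.18, with overlapping libraries. HLF, a PAR bZIP factor under clock control, lay the other way with caged values of 83.003, 136, 68.1 and 162 CPM and floor-water values of 65.2, 94.1, 74.02 and 82.4 CPM. PER2 kept a log2 fold change of -0.84 without the brain-rich libraries and -0.62 without floor-water libraries 1 and 2. The light regimen differed between the groups and the hour of sampling was not given, and neither could be told apart from housing.

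Genes that respond to glucocorticoids, the end product of the stress axis, were divided. Of 20 tested, 11 were above 0 (median 0.24), 2 were higher and 3 lower at an unadjusted p under 0.05, against 1.71% and 2.59% of all genes. The median was 0.054 without the brain-rich libraries. FKBP5, a chaperone of the receptor and a standard glucocorticoid target, had caged values of 454, 1287, 456 and 1119 CPM and floor-water values of 385, 639, 999 and 705 CPM, so the ranges overlapped, although caged libraries 2 and 4 were above every floor-water library. TSC22D3, which encodes the glucocorticoid-induced leucine zipper, was lower with caged values of 135, 143, 108 and 214 CPM and floor-water values of 222, 291, 222 and 164 CPM, with only caged library 4 inside the floor-water range and a log2 fold change of -0.59 ± 0.24 (SE). ANGPTL4, an inhibitor of lipoprotein lipase, had 6.31, 5.51, 10.1 and 24.97 CPM in the 4 caged libraries, against 20.5, 25.1, 93.6 and 51.4 CPM in the 4 floor-water libraries. Its log2 fold change was -2.02 ± 0.598 (SE), and floor-water libraries 3 and 4 were the highest. SGK1, a serum- and glucocorticoid-regulated kinase, lay the other way at 184, 327, 181 and 153 CPM in the caged and 161, 128, 106 and 116 CPM in the floor-water pituitaries, with a log2 fold change of 0.72 (0.38 without the brain-rich libraries). NR3C1, the receptor itself, had 0.24, with overlapping libraries.

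Osmotic balance genes were above 0 in 12 of 19 cases (median 0.13), and 3 were higher at an unadjusted p under 0.05 (1.71% of all genes): NFAT5, SGK1 and OXSR1. OXSR1, a kinase that regulates chloride cotransporters, had 59.7, 63.03, 63.2 and 53.4 CPM in the caged and 50.9, 40.7, 39.4 and 49.9 CPM in the floor-water pituitaries, without overlap. SLC5A3, the myo-inositol transporter and an NFAT5 target in mammals, had 0.56; its reads may be shared with the overlapping gene MRPS6. AQP1, a water channel of vessels and red cells, lay the other way, but only through floor-water libraries 1 and 2, with caged values of 5.94, 2.95, 4.83 and 3.87 CPM and floor-water values of 43.04, 43.2, 2.995 and 5.09 CPM. Without these libraries its log2 fold change was 0.11.

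All 30 proteasome subunits tested were above 0, with a median of 0.17 and 2 higher at an unadjusted p under 0.05 (1.71% of all genes). PSMD14, a deubiquitinase of the proteasome lid, had 95.5, 103, 90.6 and 86.7 CPM in the caged and 76.6, 68.8, 53.7 and 74.4 CPM in the floor-water pituitaries. PSMA2 had a log2 fold change of 0.37 and, like PSMD14 and PSMA4, did not overlap between groups. That made 3 of 30 subunits, against 1.3% of all genes in that direction. Only 15 of 30 were above 0 without floor-water libraries 1 and 2, with a median of 0.00394, and without the brain-rich libraries 21 were above 0 and the median was 0.083. Nuclear-encoded subunits of oxidative phosphorylation had 53 of 64 above 0 and a median of 0.12, against 28 and -0.049 without floor-water libraries 1 and 2 and 38 and 0.04 without the brain-rich libraries. NDUFA5, of complex I, had 69.5, 79.3, 63.9 and 88.7 CPM in the caged and 57.4, 52.7, 61.9 and 58.8 CPM in the floor-water pituitaries, and CYCS, cytochrome c, peaked at 74.5 CPM in caged library 2.

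Heat shock proteins and their partners were above 0 in 27 of 33 cases, with a median of 0.14 that was 0.23 without floor-water libraries 1 and 2 and 0.12 without the brain-rich libraries. In each of these settings 23 of 33 were above 0. DNAJB5, a DnaJ co-chaperone, had 38.5, 94.99, 64.2 and 50.5 CPM in the 4 caged libraries, against 38.7, 28.04, 29.4 and 26.5 CPM in the 4 floor-water libraries. HSPA8, the constitutive cytosolic chaperone, had 2679, 4257, 2980.2 and 3766 CPM in the caged and 2334, 2179, 2728 and 2674 CPM in the floor-water pituitaries. HSP90AA1, a chaperone of steroid receptors and kinases, had 2637, 4050.1, 2449.5 and 2983 CPM in the caged and 2514, 2269, 1747 and 2449 CPM in the floor-water pituitaries. HSPD1, the mitochondrial chaperonin, was separate between the groups with caged values of 239, 420.3, 246 and 244 CPM and floor-water values of 204, 216, 213 and 211 CPM. Brain-rich caged library 2 was the highest of the 8 for each of these genes, and without the brain-rich libraries the log2 fold changes were 0.59, 0.32, 0.35 and 0.23, against 1.02, 0.46, 0.43 and 0.45 with them. Genes of endoplasmic reticulum folding showed 27 of 31 above 0 and a median of 0.12. Without floor-water libraries 1 and 2 there were 22 of 31 above 0, with a median of 0.12. Without the brain-rich libraries there were 21 of 31, with a median of 0.084. ERO1A, an oxidase that forms disulfide bonds, SSR1, a translocon-associated protein, and HERPUD1, a stress-induced membrane protein, had log2 fold changes of 0.47, 0.45 and 0.46. CHAC1, a glutathione-degrading target of the stress pathway, lay the other way with caged values of 6.62, 4.51, 6.67 and 5.36 CPM and floor-water values of 14.1, 17.6, 7.43 and 7.35 CPM, without overlap, and had a log2 fold change of -1.01 (-0.36 without floor-water libraries 1 and 2).

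Sterol synthesis genes were above 0 in 16 of 21 cases, with a median of 0.13, and 4 were higher at an unadjusted p under 0.05, against 1.71% of all genes. The count above 0 was 12 of 21 without floor-water libraries 1 and 2, with a median of 0.042, and without the brain-rich libraries 13 of 21 with a median of 0.095. HMGCS1, which makes HMG-CoA, had 173, 202, 208 and 114 CPM in the caged and 110.1, 108, 76.8 and 115 CPM in the floor-water pituitaries, a log2 fold change of 0.77 ± 0.21 (SE). SQLE and LSS, 2 later enzymes of the pathway, and SREBF1, a transcription factor of lipid synthesis, had log2 fold changes of 0.42, 0.41 and 0.51, those of LSS and SREBF1 being 0.16 and 0.26 without the brain-rich libraries. FDFT1, squalene synthase, lay the other way at -0.35. Beside them, the lipid storage genes SOAT1 and PLIN2 were both lower, as given above.

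Cell division genes had 29 of 37 above 0 and a median of 0.25, which was -0.014 without the brain-rich libraries. MCM6 and MCM5, of the replicative helicase, had log2 fold changes of 0.504 and 0.67. Antioxidant enzymes were evenly divided, with 15 of 31 above 0. SOD3, the extracellular superoxide dismutase, had 16.3, 25.04, 17.7 and 43.1 CPM in the 4 caged libraries, against 60.3, 86.5, 85.5 and 34.2 CPM in the 4 floor-water libraries, a log2 fold change of -1.39 ± 0.37 (SE), and only caged library 4 reached the floor-water range. NQO2, a quinone reductase, was lower as well (-0.74). PRDX1, an abundant peroxiredoxin, lay the other way at 2943, 3807, 2510.5 and 2198 CPM in the caged and 2309.7, 1276, 2097 and 1215 CPM in the floor-water pituitaries.

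**Figure D5:**
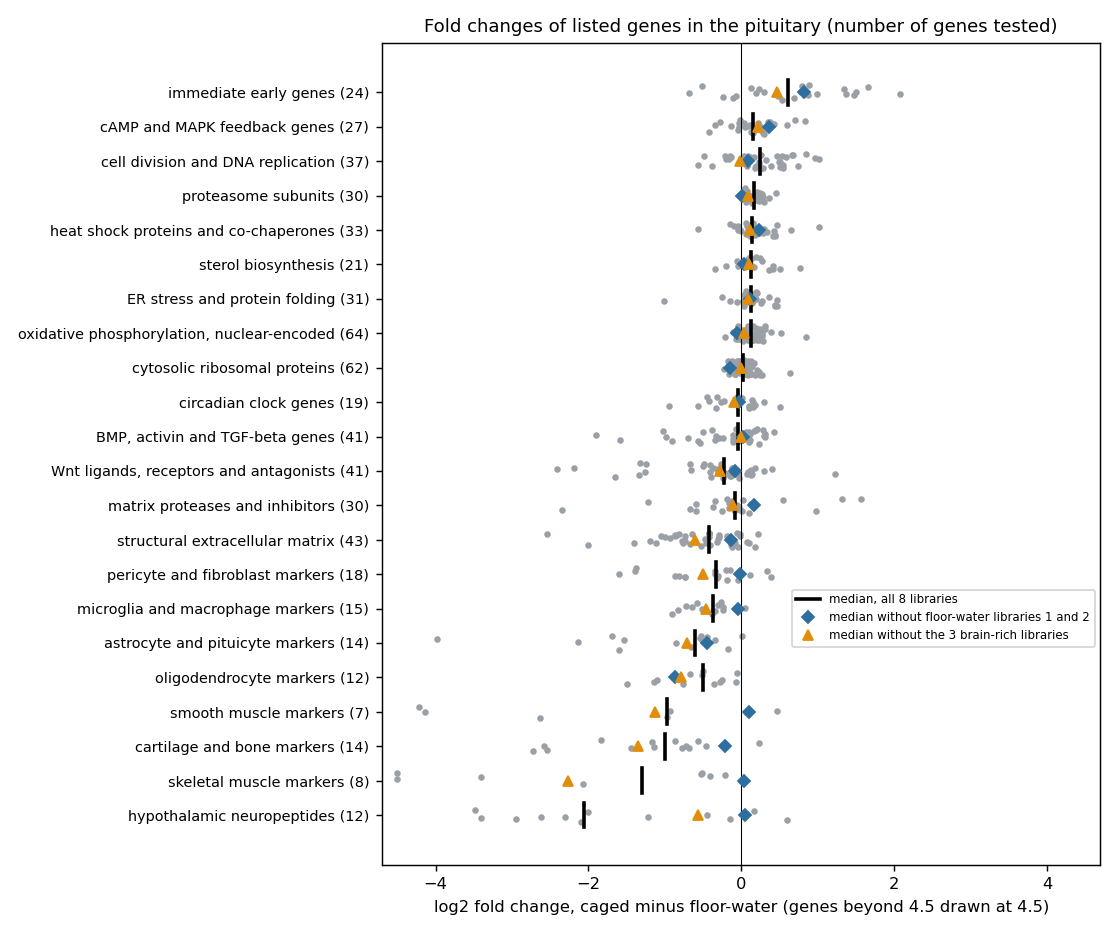
Log2 fold changes, caged minus floor-water, of the genes of 22 lists (grey points, with the number of genes tested), with the median over all 8 libraries (black bar), without floor-water libraries 1 and 2 (diamond) and without the 3 brain-rich libraries (triangle). Among the lists drawn, immediate early genes have the highest median and hypothalamic neuropeptides the lowest. Without floor-water libraries 1 and 2, which were set apart by their muscle markers, the medians of muscle, bone, fibroblast and macrophage markers lie between -0.21 and 0.097.

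Structural genes of the extracellular matrix leaned the other way. Of 43 tested, 39 were below 0, 10 had a lower level at an unadjusted p under 0.05 and 0 a higher one, against 2.59% and 1.71% of all genes, and the median was -0.42. COL4A5, given above, and FN1, fibronectin, were the members without overlap, 2 of 43 against 1.35% of all genes in that direction. FN1 had 40.2, 36.2, 26.1 and 31.7 CPM in the caged and 68.8, 40.3, 82.5 and 44.1 CPM in the floor-water pituitaries. COL5A2, a chain of fibrillar collagen, had 12.2, 20.2, 13.4 and 9.94 CPM in the 4 caged libraries, against 38.3, 39.4, 19.9 and 18.1 CPM in the 4 floor-water libraries. SPARC, a matrix-binding glycoprotein, had 543, 512, 388 and 482 CPM in the caged and 892, 679, 994 and 488 CPM in the floor-water pituitaries. The log2 fold changes of COL4A5, FN1, COL5A2 and SPARC were -0.77, -0.81, -1.05 and -0.67. Without floor-water libraries 1 and 2 they were -0.65, -0.93, -0.46 and -0.64, while the median of the list was -0.13, with 16 of 43 above 0. The mean log2(FPKM + 1) of the list was 2.82, 3, 2.72 and 2.62 in the 4 caged libraries and 3.54, 3.51, 2.98 and 2.73 in the 4 floor-water libraries, so the libraries rich in smooth muscle markers were also those richest in matrix genes. The part of admixed connective tissue in the result was not tested.

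Matrix proteases and their inhibitors had 10 of 30 above 0 (median -0.087). ADAMTS8 was lower, as given above, and ADAMTS1, a related protease that is induced by ovulatory signals in the mammalian ovary, was higher at 320.1, 372, 291 and 169.6 CPM in the caged and 194, 196, 98.4 and 94.9 CPM in the floor-water pituitaries, with a log2 fold change of 0.98 ± 0.31 (SE). MMP2, a gelatinase, followed the smooth muscle markers with caged values of 38.2, 50.9, 36.3 and 32.2 CPM and floor-water values of 90.1, 99.7, 32.98 and 28.6 CPM. TIMP3, an inhibitor of these enzymes, had a log2 fold change of -0.59.

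Genes of Wnt signalling lay mostly below 0. Of 41 Wnt genes tested, 30 were below 0, 6 were lower and 1 higher at an unadjusted p under 0.05, against 2.59% and 1.71% of all genes, and the median was -0.22. The median was -0.084 without floor-water libraries 1 and 2. SFRP1, a secreted Wnt antagonist, had 11.2, 13.4, 10.7 and 11.5 CPM in the 4 caged libraries, against 48.4, 30.8, 16.2 and 16.95 CPM in the 4 floor-water libraries. The caged libraries were close together, and floor-water libraries 1 and 2 were the highest. WIF1, another antagonist that binds Wnt ligands, had 33.2, 11.01, 45.5 and 18.4 CPM in the 4 caged libraries, against 94.2, 143, 55.5 and 45.5 CPM in the 4 floor-water libraries. LGR4, a receptor for R-spondins, had 31.05, 25.9, 32.1 and 28.998 CPM in the 4 caged libraries, against 40.3, 40.3, 38.3 and 37.4 CPM in the 4 floor-water libraries, a tight separation by a log2 fold change of -0.41 ± 0.14 (SE). RSPO2, a secreted agonist of that receptor, had caged values of 1.46, 2.48, 1.97 and 0.744 CPM and floor-water values of 4.93, 6.63, 2.496 and 2.702 CPM. FZD8, a Wnt receptor, lay the other way at 20.4, 67.3, 28.6 and 19.3 CPM in the caged and 16.7, 12.1, 15.6 and 13.4 CPM in the floor-water pituitaries, where caged library 2 was the highest. Without floor-water libraries 1 and 2 the log2 fold changes of SFRP1, WIF1 and RSPO2 shrank to -0.51, -0.91 and -0.65, whereas LGR4 stayed at -0.37.

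Genes of BMP, activin and TGF-beta signalling were divided, with 18 of 41 above 0 and a median of -0.043. GREM1, a secreted BMP antagonist, had a log2 fold change of -1.89 (-0.73 without floor-water libraries 1 and 2), and BMP5, a ligand at low level, had -1.59 (-0.79 without the brain-rich libraries). FSTL1, a follistatin-like glycoprotein, had a log2 fold change of -0.496, and ACVR1, a type I receptor, lay the other way at 0.31.

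Markers of other cell types were examined over whole lists. Astrocyte and pituicyte markers were below 0 in 13 of 14 cases, with a median of -0.599 that was -0.71 without the brain-rich libraries and -0.45 without floor-water libraries 1 and 2. SLC1A2, the glial glutamate transporter, had 2.67, 2.34, 2.11 and 1.69 CPM in the 4 caged libraries, against 8.93, 3.01, 3.87 and 10.9 CPM in the 4 floor-water libraries. GLUL, glutamine synthetase of glia, had 259.7, 396, 234 and 332 CPM in the caged and 368, 546, 439 and 393 CPM in the floor-water pituitaries. TBX3, given above, is a further member of the list. Oligodendrocyte markers were below 0 in all 12 of 12 cases (median -0.505), MBP itself having a log2 fold change of -0.495 ± 1.38 (SE). The median of these markers was -0.79 without the brain-rich libraries and -0.12 with brain share as a covariate. It ranged from -1.51 to -0.038 when each library was left out in turn. Hypothalamic neuropeptides had a median of -2.05, which rested on floor-water library 2: SST, somatostatin, had caged values of 0.523, 8.197, 0.339 and 0.306 CPM and floor-water values of 0.206, 101, 0.499 and 3.58 CPM, and without that library the median was 0.15. AGRP, PDYN and VIP, further peptides, likewise peaked in floor-water library 2.

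Folliculostellate and stem cell markers of the anterior lobe were near 0 (median -0.023, 5 of 14 above 0). SOX2, the transcription factor of pituitary stem cells, had 40.6, 27.7, 40.1 and 45.8 CPM in the caged and 54.8, 60.7, 50.3 and 55.1 CPM in the floor-water pituitaries, without overlap and with a log2 fold change of -0.52 ± 0.17 (SE). ALDH1A2, which makes retinoic acid, lay the other way at 459.8, 628, 495 and 704 CPM in the caged and 536, 289, 235 and 193 CPM in the floor-water pituitaries, floor-water library 1 being within the caged range. Pericyte and fibroblast markers were below 0 in 15 of 18 cases (median -0.33). FOXC1, a factor of mural and meningeal cells, had 2.21, 1.61, 1.86 and 2.12 CPM in the caged and 7.28, 4.59, 5.76 and 2.67 CPM in the floor-water pituitaries. Without floor-water libraries 1 and 2 FOXC1 was at -1.12, but the list's median was -0.011.

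Microglia and macrophage markers were below 0 in 14 of 15 cases, with a median of -0.38. C1QC, a complement chain made by macrophages, had caged values of 14.4, 6.34, 7.42 and 13.98 CPM and floor-water values of 20.2, 19.6, 24.3 and 10.3 CPM, and CSF1R, the receptor of their growth factor, had -0.57. Without floor-water libraries 1 and 2 the list's median was -0.046, with 7 of 15 above 0. Cartilage and bone markers had a median of -0.999 (-0.21 without these libraries). MATN3, a matrilin of cartilage, was low but separate with caged values of 0.262, 0.859, 0.236 and 0.175 CPM and floor-water values of 1.96, 2.41, 2.995 and 1.601 CPM, and COL2A1, the collagen of cartilage, was at -2.72. Smooth muscle markers were below 0 in 5 of 7 cases, with PLN (0.47) and MYOCD (0.066) lying the other way. Skeletal muscle markers were below 0 in 8 of 8 cases. The medians were -0.97 for smooth and -1.299 for skeletal muscle, against 0.097 and 0.042 without floor-water libraries 1 and 2. Because these libraries were set apart by their high muscle markers, medians of muscle markers nearer to 0 without them follow from that choice.

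The other lists gave no more than 2 members at an unadjusted p under 0.05 in either direction. Gonadotrope signalling genes had 2 of 17 higher (CGA and EGR1, given above), against 1.71% of all genes. Motile cilium markers had 2 of 14 lower, against 2.59% of all genes. Median log2 fold changes were 0.068 for 17 granins and prohormone-processing genes, -0.063 for 24 exocytosis genes, 0.036 for 20 nuclear hormone receptors, -0.093 for 17 gonadotrope signalling genes and -0.044 for 14 photoperiod and thyroid hormone genes. They were 0.026 for 62 cytosolic ribosomal proteins, of which 34 were above 0 (10 without floor-water libraries 1 and 2), -0.00989 for 26 glycolysis and hypoxia genes, 0.00954 for 20 Notch genes, -0.034 for 38 voltage-gated channels and -0.032 for 33 innate immune genes. DIO2, which activates thyroid hormone, had caged values of 50.7, 331, 243 and 120.5 CPM and floor-water values of 108, 191, 72.6 and 129.9 CPM, a log2 fold change of 0.57 ± 0.504 (SE). Among cell markers, medians were -0.078 for endothelial cells, -0.25 for neurons, 0.028 for lymphocytes, -0.42 for erythrocytes (0.078 without floor-water libraries 1 and 2), -0.14 for photoreceptor, pineal and choroid plexus cells and -0.24 for motile cilia.

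The same comparison in hypothalamus was used to test whether the difference between caged and floor-water ducks depended on the tissue. In edgeR's interaction test 0 of 17010 genes (0%) passed an adjusted p of 0.05, 4 of the 16 libraries being in each group. The count was 4 without floor-water pituitary library 3, 3 without caged pituitary library 2 and 1 without caged hypothalamus library 2, and DESeq2 passed 142 with all libraries. Among the genes named, FOS and EGR1 had log2 fold changes of 0.296 and 0.37 in hypothalamus, beside 1.51 and 1.47 in pituitary, and NR4A1 had 1.13 beside 2.08. RPIA, PLIN2 and SOAT1 were at 0.15, 0.069 and 0.075 in hypothalamus, and PER2 was at -0.18. NFAT5 and HSF4 had log2 fold changes of 0.97 and 1.36 there, in the same direction as in pituitary. SFRP1 and WIF1 were lower in caged pituitary but had 1.38 and 2.03 in hypothalamus, and neither passed the interaction test over all libraries. Of the pituitary hormones, GH1, PRL and POMC had log2 fold changes of 3.69, 4.28 and 3.64 in hypothalamus, CGA and FSHB had 4.36 and 4.11, and TSHB had 0.16. Other pituitary genes were high there too, with 3.94 for GHRHR and 2.19 for INSM1. The part of pituitary RNA in the hypothalamus values of any of these genes, SFRP1 and WIF1 included, was not tested.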

How the data were processed

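Gene counts and FPKM of the 8 pituitary libraries were used, with the 8 hypothalamus libraries for comparison. The count columns hold whole numbers of reads per gene, as the authors deposited them. FPKM, scaled by transcript length and depth, was likewise deposited, and its lowest value is 0.0001. Per the submitters' processing notes the tools were cutadapt, HISAT2, StringTie 1.3.4d and DESeq2. No setting, genome build, annotation or strand use is stated in what was read here, so no positions are printed. The deposited comparison columns were not used.

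Of 24263 genes listed, 12032 had a symbol. Identifiers were looked up in a RefSeq gene table of duck assembly IASCAAS_PekinDuck_T2T for names alone: 17945 matched, and 540 locus-number genes gained a symbol. The number of sample columns without a label was 0, as was that of unnamed genes. Libraries of the same group differed far beyond sampling noise (chi-square per degree of freedom 151 to 509), so none was a duplicate. Depth, 48433586 counts or more, makes counting error small except for the lowest genes.

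Housing groups were compared with edgeR 4.0.16 (R 4.3.3): quasi-likelihood test, TMM scaling, filterByExpr, Benjamini-Hochberg adjustment over all genes tested, threshold 0.05. The script was tested on simulated data. The difference between tissues was an interaction over all 16 libraries. For brain share, a two-sided exact permutation test ran through all 70 assignments. Alternatives comprised DESeq2 1.42.0, limma 3.58.1 on log2 FPKM (pseudocounts 1 and 0.1), RLE and upper quartile scaling, testing without a filter or with an FPKM mean of at least 1, robust and newer quasi-likelihood fits, the title number as a block, all libraries in 1 fit, brain share as a covariate, and fits without brain-rich libraries (above 3%) or without each library in turn. The fit without floor-water libraries 1 and 2 was added after seeing the data.

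The comparison, the 44 gene lists (15 of other cell types) and the naming rule were chosen with earlier results of these data known. Named were the hormones and 15 further genes of pituitary, stress or clock roles; GNRHR was not analysed here, and 2 genes the rule named are not reported here. With fewer than 10 genes past the threshold each way, the 10 smallest p each way were taken from genes that had a symbol, reached 1 FPKM in the mean of a group, did not overlap between groups and were at most 10 times higher in hypothalamus. From each of 26 lists, up to 4 members with the smallest p in the direction of the median and 1 in the other direction could be named. Lists are described by counts and medians, with no test. Standard errors were derived from fold changes and their test statistics. Near-identical copies and overlapping genes may share reads.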

Additional observations from a re-analysis of the deposited data

Results flagged for a closer look

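In each group of 4 libraries, 1 library was looked for that lay much farther from the others than they lay from each other. Of 400 groups of values examined, 32 (8%) had such a library, by Dixon's 95% critical value for 4 values. Chance gives about 1 in 20 of independent groups, and these groups share their libraries. No difference between tissues passed its test.

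Caged library 2 was the highest of its group for PLIN2 (33.8 CPM, the others 27.6 to 28.4), DUSP5 (32.5, the others 7.397 to 10.04), HSPD1 (420.3, the others 239 to 246), ACTA2 (69.1, the others 13.8 to 20.6), MATN3 (0.859, the others 0.175 to 0.262), MC4R (0.796, the others 0.263 to 0.331), SST (8.20, the others 0.306 to 0.523) and MBP (300.5, the others 1.62 to 11.02). It also had the highest brain share (4.13%, the others 0.0378% to 0.133%) and the highest mean log2(FPKM + 1) of hypothalamic neuropeptides (2.59, the others 1.11 to 1.19), astrocyte and pituicyte markers (2.996, the others 2.09 to 2.20), hormone genes (12, the others 11.56 to 11.61) and clock genes (3.23, the others 3.04 to 3.06).

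Caged library 1 was the highest for ANXA1 (2.39 CPM, the others 0.788 to 1.02), MYL1 (0.366, the others 0 to 0.0589) and IBSP (4.57, the others 0.560 to 0.700). Caged library 3 was the highest for HSF4 (9.73 CPM, the others 5.07 to 5.80) and MMP28 (0.722, the others 0.141 to 0.227) and the lowest for SREBF1 (71.0, the others 85.5 to 86.8). Caged library 4 was the highest for UQCR11 (90.1 CPM, the others 53.7 to 59.8) and for cytosolic ribosomal proteins (mean log2(FPKM + 1) of 10.04, the others 9.56 to 9.59).

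Floor-water library 1 was the highest for the skeletal muscle genes MYL1 (28.6 CPM, the others 0 to 0.945), TNNT3 (28.9, the others 0 to 0.535), TNNI2 (29.5, the others 0.120 to 1.68) and TTN (10.2, the others 0.258 to 0.957). Floor-water library 2 was the highest for AGRP (14.2 CPM, the others 0.103 to 0.856), PDYN (82.6, the others 1.91 to 8.63), SST (101.3, the others 0.206 to 3.58), MC4R (10.1, the others 0.275 to 0.654), SELENOP (134.7, the others 50.7 to 63.3) and ADAMTS8 (64.2, the others 48.5 to 48.7). Floor-water library 3 was the highest for NFAT5 (95.6 CPM, the others 29.7 to 35.8).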

How the results depend on the processing

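The count of 0 genes past the edgeR threshold became 52 with DESeq2, 2 with the newer quasi-likelihood fit (LOC110353286 and LOC113843336), 3 with all 16 libraries in 1 fit (CHRNA6, CTXND1 and LOC110353286), 1 without floor-water libraries 1 and 2, and 0 to 2 when each library was left out. No reading of the title numbers as pairs was given in the labels: same-number libraries deviated together with correlations of 0.121, 0.22, -0.0967 and -0.0713, only 1 of 4 caged libraries correlated best with its own number, and the fit with the number as a replicate block called 0 genes. The difference between tissues gave 142 genes with DESeq2 and 0 to 4 without 1 library. At an unadjusted p under 0.05 there were 1329 genes (493 higher and 836 lower) with all 16 libraries in 1 fit, 169 higher with limma at either pseudocount, and 529 to 847 (198 to 381 higher, 301 to 612 lower) without 1 library. Counts of genes whose groups do not overlap grow by construction with fewer libraries: 1167 higher and 1385 lower without the brain-rich libraries, 1122 and 947 without floor-water libraries 1 and 2, and 333 to 504 higher and 342 to 546 lower without 1 library.

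Of 968 list medians under alternatives, 918 stayed within 1 SD of the library levels. This limit is wide for lists whose level varied between libraries, so the count is not a measure of stability. For example, the matrix median of -0.42, which was -0.13 without floor-water libraries 1 and 2, stayed within it. The medians that moved more, 50 in all, are given here for the hormones and the 26 lists from which members were named. Those of the other lists are left out. The cause of a move was not tested in any setting, since leaving libraries out does not test a cause. Without floor-water libraries 1 and 2 they were -0.28 for hormones, -0.049 for oxidative phosphorylation, 0.00394 for proteasome subunits, 0.16 for matrix proteases, 0.048 for neuropeptides, -0.011 for pericytes and fibroblasts, 0.10 for smooth muscle, 0.042 for skeletal muscle and -0.21 for cartilage and bone. Without the brain-rich libraries they were 0.075 for hypothalamic hormone receptors, 0.083 for proteasome subunits, -0.56 for neuropeptides and -2.26 for skeletal muscle. With brain share as a covariate they were -0.12 for antioxidant enzymes and -0.27 for neuropeptides. DESeq2 gave -0.44 for neuropeptides. Limma gave, with pseudocounts of 1 and 0.1, -0.38 and -0.54 for cartilage and bone, and with 1, -0.84 for neuropeptides and -0.37 for skeletal muscle. Genes with a mean FPKM of at least 1 gave -2.67 for smooth and -3.41 for skeletal muscle. Without 1 library the ranges were -0.033 to 0.26 for glucocorticoid response, 0.018 to 0.26 for oxidative phosphorylation, 0.094 to 0.26 for proteasome subunits, -0.12 to 0.047 for antioxidant enzymes, -0.066 to 0.25 for osmotic balance, -3.55 to 0.15 for neuropeptides and -1.69 to 0.10 for skeletal muscle.

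Of 155 named genes, 24 changed sign in some setting (52 of 3380 values), none of them with an adjusted p under the threshold. Without floor-water libraries 1 and 2 log2 fold changes were -0.18 for POMC, -0.076 for VIPR1, -0.055 for FKBP5, 0.47 for DNAJB4, 0.34 for MMP2, 0.11 for AQP1, 0.88 for PDYN, 0.18 for SST, 0.18 for ANXA1, 0.30 for TBX18, 0.10 for MYH11, 0.16 for TAGLN and 0.61 for TTN. Without the brain-rich libraries they were -0.030 for VIPR1, 0.69 for CRHR1, -0.036 for FKBP5, 0.17 for NPY5R, -0.0085 for LAMA2, 0.14 for SST, -0.069 for GJA1 and 0.040 for S100B. With brain share as a covariate they were -0.037 for PER3, -0.14 for C1QB and 0.25 for MBP. Limma gave -0.0116 for POMC and, with pseudocounts of 1 and 0.1, -0.046 and -0.044 for GJA1, which was -0.014 with upper quartile scaling and -0.011 with the FPKM filter. Without 1 library the ranges were -0.47 to 0.12 for GH1, -0.068 to 0.25 for POMC, -0.30 to 0.075 for TRHR, -0.69 to 0.29 for CRHR1, -0.012 to 0.54 for FKBP5, -0.34 to 0.061 for DNAJB4, -2.46 to 0.21 for PDYN, -6.07 to 0.71 for SST, -0.00377 to 1.38 for CRH, -0.35 to 0.34 for GJA1, -2.45 to 0.19 for TTN, -0.36 to 0.40 for C1QB and -3.96 to 0.74 for MBP. With 4 libraries a side and a wide spread within groups, small differences were not detectable at this design, and large ones did not pass the edgeR test either. GRIN2C, at a log2 fold change of 2.16 without overlap between the groups, had an adjusted p of 0.961 in that test over all 8 libraries.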

Other observations

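Further markers of connective tissue, muscle and immune cells are given here as values. COL1A2 and COL3A1 encode chains of fibrillar collagen. COL1A2 had caged values of 166, 173, 86.6 and 88.8 CPM and floor-water values of 359.6, 272, 232 and 77.7 CPM. COL3A1 had caged values of 59.6, 83.6, 37.2 and 39.2 CPM and floor-water values of 105, 139, 79.3 and 42.4 CPM, and the log2 fold changes were -0.87 and -0.74. TBX18, a factor of mural cells, had caged values of 1.31, 1.03, 0.898 and 0.416 CPM and floor-water values of 4.53, 5.13, 0.713 and 0.757 CPM. IBSP, a bone matrix glycoprotein, had caged values of 4.57, 0.687, 0.56 and 0.7 CPM and floor-water values of 22.9, 12.3, 3.46 and 0.189 CPM. COL11A1, a cartilage collagen, had caged values of 14.8, 17.2, 10.4 and 7.79 CPM and floor-water values of 30.6, 20.6, 17.5 and 13.8 CPM. TNNT3 and TNNI2, fast skeletal troponins, were at 28.9 and 29.5 CPM in floor-water library 1, against at most 1.68 CPM in any other library. P2RY12, a receptor of microglia, was at a low level but did not overlap, with caged values of 0.785, 0.937, 1.24 and 0.35 CPM and floor-water values of 1.51, 1.61, 1.301 and 1.81 CPM. CTSS, a cathepsin of macrophages, had caged values of 30.1, 19.4, 34.5 and 21.6 CPM and floor-water values of 54.1, 32.2, 41.6 and 22.8 CPM.

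Among enzymes and replication genes not described above, PSMB1 and PSMA4, proteasome subunits, had log2 fold changes of 0.28 and 0.24. UQCRB, of respiratory complex III, was at 0.29, while UQCR11 of the same complex lay the other way at -0.21. CCNE1 and CCNA2, cyclins of the S phase, were at 0.46 and 0.28, and CENPE, a kinesin of the mitotic spindle, at -0.56. CAT, catalase, and SELENOP, a selenium carrier, had log2 fold changes of -0.33 and -0.65. The adjusted p of each of these genes in edgeR's quasi-likelihood test was above the threshold of 0.05.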
